A study of Homo sapiens with 24 samples.

Results

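The 38 genes described here encode the chains of integrins and laminins, 26 integrin chains (18 alpha, 8 beta) and 12 laminin chains (5 alpha, 4 beta, 3 gamma). They were taken by symbol from a table of 26450 genes: ITGA, ITGB, LAMA, LAMB or LAMC followed by a number, or by V, E, L, M, X or D for the alpha chains that carry a letter. PANC-1, an epithelial line from the pancreatic duct, and HEK293T, an epithelial line from embryonic kidney that carries the SV40 large T antigen, were each grown in 4 formats. The formats were flat culture (2D), microwell aggregates (AggreWell) and dual-axis rotating capillary containers (DRCC) run at 1 rpm and at 30 rpm. Each of the 8 groups had 3 libraries of total RNA. The labels name no genotype, drug or time in culture, and each line stands for 1 tissue of origin only. They do not say whether the 3 libraries of a group came from separate cultures, so p-values here cover the variation among these libraries only, part of which may be technical.

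Integrins are receptors made of 1 alpha and 1 beta chain that tie the cell to the extracellular matrix or to other cells and signal through adaptor proteins at their cytoplasmic tails. Laminins are trimers of 1 alpha, 1 beta and 1 gamma chain that form the polymer at the base of basement membranes. ITGA3, ITGA6 and ITGA7 pair with a beta chain to bind laminin, ITGA1, ITGA2, ITGA10 and ITGA11 make collagen receptors with ITGB1, and ITGA5, ITGA8, ITGAV and ITGA2B belong to the receptors that read the Arg-Gly-Asp motif of fibronectin, vitronectin and related proteins. ITGA6 with ITGB4 forms the receptor of hemidesmosomes, the junctions that anchor epithelium to its basement membrane. LAMA5 is the alpha chain of many adult epithelial basement membranes.

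Values were deposited as FPKM, fragments scaled by gene length and by library depth, so levels can be compared between genes. The fragment counts recovered from the table summed to 32021638 to 39556154 per library. A gene was called expressed in a line when it reached 1 FPKM in at least 3 of the line's 12 libraries, and only such genes were tested. Changes are differences of log2(FPKM + 1) with their standard error (SE), which understate the change of genes near 1 FPKM, and a change was called at a Benjamini-Hochberg adjusted p under 0.05 over all genes tested in limma. Of 9 duct epithelium markers 7 were expressed in PANC-1 (CFTR not among them, summed level 604 to 1230 FPKM) and 4 in HEK293T (80.7 to 130). Of 7 kidney markers measured, 3 were expressed in HEK293T (summed level 4.75 to 7.0 FPKM), while PAX8, CDH16, AQP1 and SLC12A1 were not, and 2 in PANC-1 (5.68 to 11.2). The summed kidney markers were therefore no higher in HEK293T. PAX2 read 1.26 to 1.88 FPKM there beside 4.14 to 9.05 in PANC-1, whereas EMX2 read 1.82 to 3.05 beside 0.00985 to 0.137. Of the HEK293T line markers LIN28B, NEFL and INA, 3 were expressed in HEK293T (summed level 19.0 to 49.5 FPKM). In PANC-1 only LIN28B was, and the 3 summed to 3.77 to 7.09 FPKM. Leukocyte markers summed to at most 2.07 FPKM in PANC-1 and 1.98 in HEK293T, and the endothelial markers to at most 4.66 and 0.357. Relative to 2D the median gene moved by 0.10, 0.15 and 0.17 in PANC-1 and by 0.12, 0.18 and 0.13 in HEK293T (AggreWell, 1 rpm, 30 rpm), whereas under median-ratio scaling it moved by -0.06, -0.04 and -0.03 in PANC-1 and by -0.07, -0.06 and -0.05 in HEK293T. A change in a bulk library cannot be told apart from a change in the share of cells that carry the RNA.

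PANC-1 expressed 17 of the 38 genes, 11 integrin and 6 laminin chains, and HEK293T expressed 22, 14 integrin and 8 laminin chains. The lines shared 13: ITGA2, ITGA3, ITGA5, ITGA6, ITGAE, ITGAV, ITGB1, ITGB5, LAMA5, LAMB1, LAMB2, LAMC1 and LAMC3. PANC-1 alone passed with 4, among them the collagen-binding chain ITGA10, the vitronectin-receptor chain ITGB3, and ITGB4. HEK293T alone passed with 9, the alpha chains ITGA1, ITGA2B, ITGA4, ITGA7, ITGA8 and ITGA9 and the laminin alpha chains LAMA1, LAMA3 and LAMA4. In neither line did 12 pass, among them the leukocyte chains ITGAD, ITGAL, ITGAM, ITGAX, ITGB2 and ITGB7, the TGF-beta-activating chains ITGB6 and ITGB8, and ITGA11, LAMA2, LAMB3 and LAMB4. Of these 12, ITGB8 and LAMB3 came nearest in PANC-1, with highest libraries of 0.801 and 0.843 FPKM, and no other exceeded 0.310 FPKM in any library. At a threshold of 0.5 FPKM, 19 of the 38 passed in PANC-1 and 23 in HEK293T, and at 2 FPKM 14 and 20.

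Format moved few genes across the threshold. By a group mean of at least 1 FPKM, PANC-1 held 16, 16, 17 and 15 of the 38 in 2D, AggreWell, 1 rpm and 30 rpm, and HEK293T held 19, 21, 22 and 21. In PANC-1 the gain at 1 rpm was ITGA10 and the loss at 30 rpm was ITGB3, whose mean was 1.60 ± 0.212 FPKM (SD, n = 3) in 2D and 0.991 ± 0.238 at 30 rpm. In HEK293T ITGA1 and ITGA2 passed in each of the 3 other formats but not in 2D, and ITGA9, the tenascin and osteopontin receptor chain, reached 0.172 ± 0.0184, 0.585 ± 0.0485, 1.18 ± 0.121 and 0.564 ± 0.0652 FPKM and so passed at 1 rpm only. ITGA9 in HEK293T and ITGA10 in PANC-1 entered the test through the libraries in which they are high, so they had to differ, and without any 1 of its 1 rpm libraries ITGA9 no longer passed and HEK293T expressed 21. ITGA9 overlaps ITGA9-AS1, whose median in HEK293T was 0.846 FPKM beside 0.5865 for ITGA9. Without a stated strand setting their reads cannot be told apart where the genes overlap, so the passing of ITGA9 at 1 rpm carries that limit. In PANC-1 the whole 12 libraries held 12 fragments of ITGA4, 4 of ITGA9 and 1 of ITGA8.

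Read as pairs and trimers, 8 of 24 known integrin heterodimers had both chains at a mean of at least 1 FPKM in 2D in PANC-1, and 8 in HEK293T. In PANC-1 these were ITGB1 with ITGA2, ITGA3, ITGA5, ITGA6 or ITGAV, ITGAV with ITGB3 or ITGB5, and ITGA6 with ITGB4. The 1 rpm format added ITGA10 with ITGB1, and 30 rpm lacked ITGAV with ITGB3. In HEK293T they were ITGB1 with ITGA3, ITGA4, ITGA5, ITGA6, ITGA7, ITGA8 or ITGAV, and ITGAV with ITGB5. AggreWell, 1 rpm and 30 rpm held 10, 11 and 10 there, through ITGA1, ITGA2 and, at 1 rpm, ITGA9. Of 15 laminin trimers PANC-1 had all chains of 4, which share LAMA5, and HEK293T of 10, in every format. Presence of the RNAs does not show that a complex forms.

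**Figure D1:**
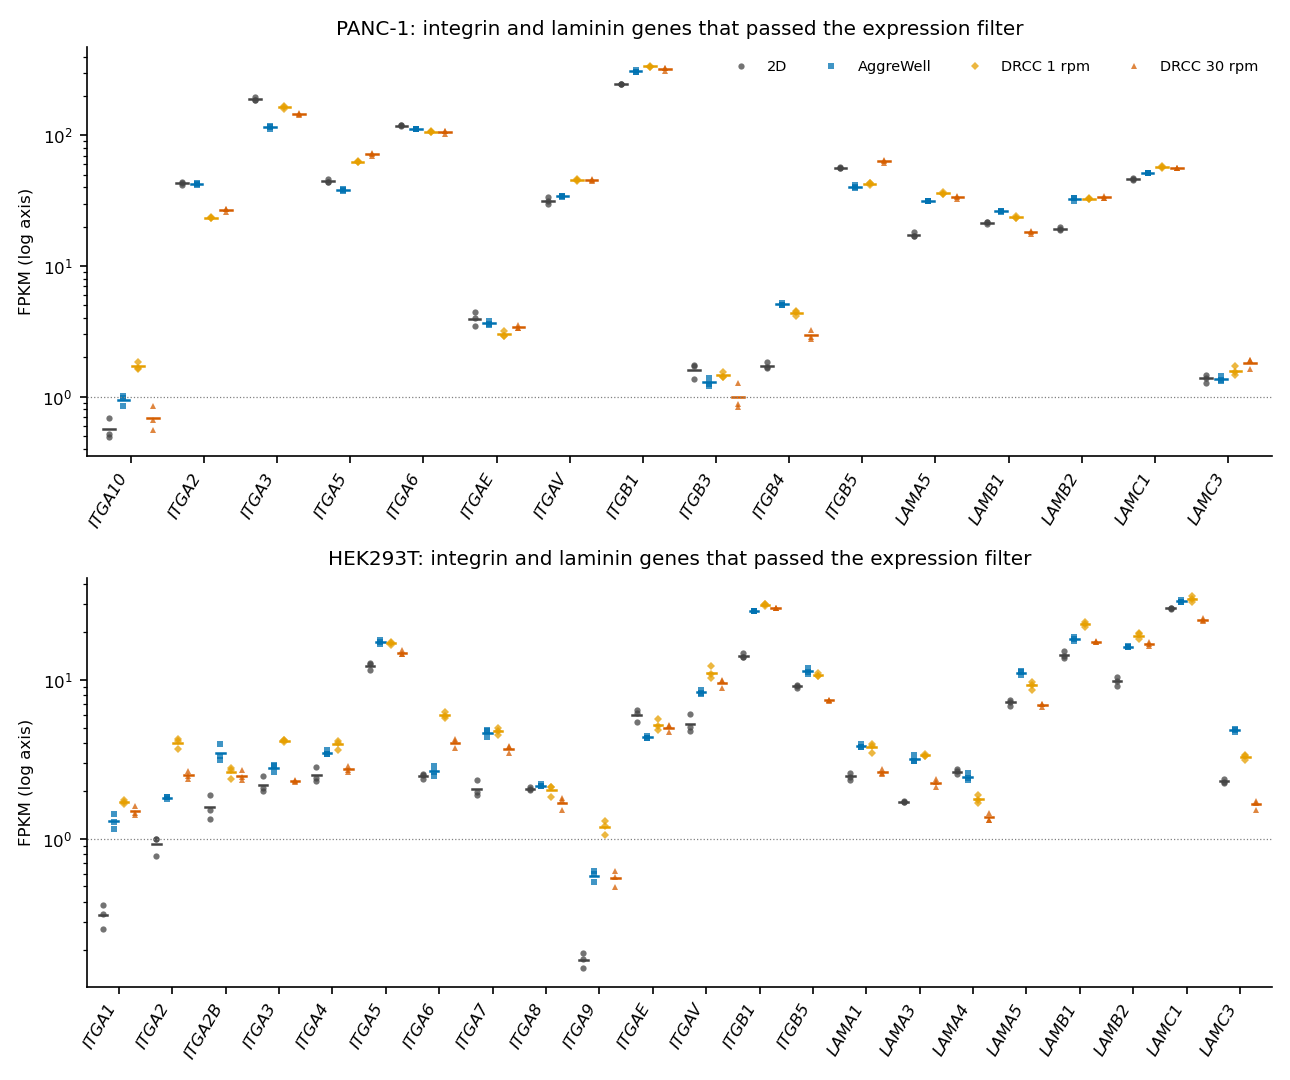
FPKM on a log axis of integrin and laminin genes that passed the expression filter in PANC-1 (top, 16 genes) and HEK293T (bottom, 22 genes), with 1 point per library, bars at the group means and a dotted line at 1 FPKM. ITGB1 is the highest gene in PANC-1, at 248 to 342 FPKM, whereas in HEK293T LAMC1 and ITGB1 lead and no library exceeds 33.6 FPKM.

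The make-up of each chain class was not the same in the lines or, within a line, in the formats. In PANC-1 ITGA3 was the main alpha chain and gave a median of 43.4% of the summed alpha-chain FPKM in 2D, 33.2% in AggreWell, 39.9% at 1 rpm and 36.6% at 30 rpm, followed by ITGA6 with 27.5%, 32.1%, 26.1% and 26.4%. In HEK293T the fibronectin-receptor chain ITGA5 led with 33.1%, 32.2%, 26.3% and 29.1%. ITGB1 held 80.3%, 86.7%, 87.4% and 82.4% of the beta-chain FPKM in PANC-1, and 59.2%, 69.2%, 72.2% and 77.9% in HEK293T, where ITGB5 held 38.0% in 2D and 20.5% at 30 rpm. LAMA5 was nearly the only laminin alpha chain in PANC-1 (97.8% in 2D, 99.0% at 1 rpm), while in HEK293T it held 50.8% in 2D and shared the class with LAMA1, LAMA3 and LAMA4. The summed alpha-chain level was 433 ± 6.14 FPKM (SD, n = 3) in PANC-1 2D and 38.0 ± 0.702 in HEK293T 2D, and the highest sum in HEK293T was 63.9 ± 1.04 at 1 rpm. These shares come from the same libraries and carry no test of their own.

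**Figure D2:**
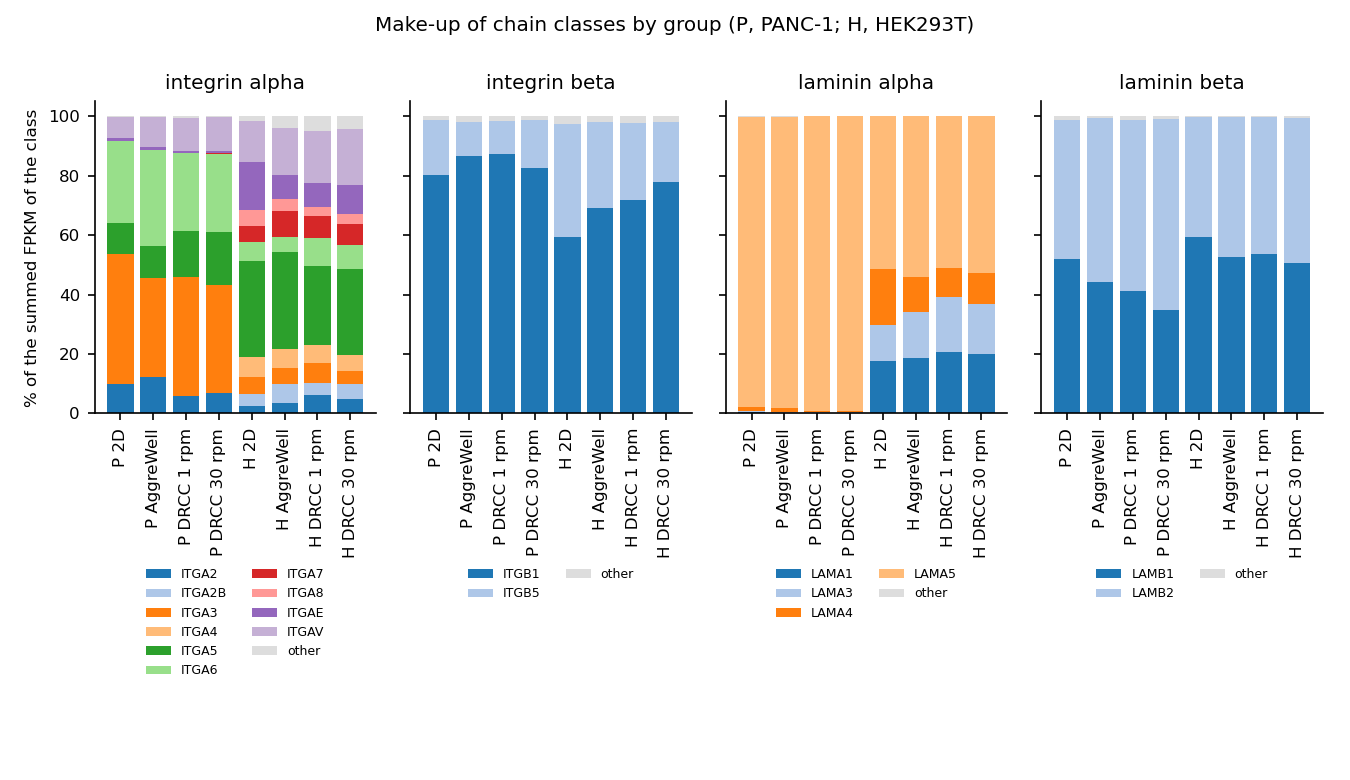
Stacked bars of each chain's group mean FPKM as % of the summed means of its class, for 4 classes in the 8 groups (P, PANC-1; H, HEK293T; n = 3 libraries per group). In PANC-1 LAMA5 fills the laminin alpha bar, whereas in HEK293T 4 laminin alpha chains share the bar and ITGB1 gains on ITGB5.

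The laminin chains of PANC-1 parted by gene. LAMA5 and LAMB2 were higher in every format other than 2D, and LAMC1 moved less. LAMA5 stood at 18.1, 17.1 and 17.1 FPKM in 2D, 31.6, 31.6 and 31.4 in AggreWell, 35.8, 35.7 and 37.1 at 1 rpm and 34.2, 33.6 and 32.8 at 30 rpm, so all 9 libraries from the other formats lay above the 3 from 2D. Its changes were 0.82 ± 0.03 (adjusted p = 5.3e-11) in AggreWell, 1.01 ± 0.03 (adjusted p = 8.2e-13) at 1 rpm and 0.91 ± 0.03 (adjusted p = 2.6e-12) at 30 rpm. The beta chain LAMB2, a component of mature kidney and muscle basement membranes, read 19.8, 18.9 and 19.2 FPKM in 2D, 32.9, 31.7 and 33.4 in AggreWell, 32.7, 32.97 and 32.8 at 1 rpm and 33.4, 34.5 and 33.2 at 30 rpm. Again every library outside 2D lay above those in 2D, and AggreWell overlapped both speeds, with changes of 0.73 ± 0.03, 0.74 ± 0.03 and 0.77 ± 0.03 (largest adjusted p = 9.4e-11).

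The common gamma chain LAMC1 read 46.6, 47.4 and 45.2 FPKM in 2D, 51.4, 51.4 and 51.9 in AggreWell, 56.2, 57.4 and 57.9 at 1 rpm and 56.1, 56.4 and 56.5 at 30 rpm in PANC-1. The 2D libraries were the lowest, and the rises were 0.15 ± 0.02, 0.30 ± 0.02 and 0.27 ± 0.02, of which the first turned to -0.04 and the last to 0.04 under median-ratio scaling. The beta chain LAMB1 read 21.03, 21.8 and 21.6 FPKM in 2D, 26.4, 26.4 and 25.97 in AggreWell, 23.5, 23.3 and 24.2 at 1 rpm and 18.3, 18.7 and 17.5 at 30 rpm. It was highest in AggreWell and lowest at 30 rpm, with changes of 0.28 ± 0.03, 0.13 ± 0.03 and -0.23 ± 0.03, and the value at 1 rpm turned to -0.09 under median-ratio scaling. LAMC3 was low throughout, at 1.28, 1.47 and 1.40 FPKM in 2D, 1.43, 1.31 and 1.35 in AggreWell, 1.56, 1.46 and 1.72 at 1 rpm and 1.91, 1.91 and 1.64 at 30 rpm. Of its changes only that at 30 rpm was called, 0.24 ± 0.06 (adjusted p = 0.0016), and it turned to -0.12 under quantile normalization.

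In HEK293T, where 8 laminin chains were expressed, the alpha chains did not move together. LAMA5 read 7.27, 6.88 and 7.47 FPKM in 2D, 10.7, 11.2 and 11.4 in AggreWell, 9.70, 8.69 and 9.31 at 1 rpm and 6.75, 7.07 and 7.07 at 30 rpm. It was highest in AggreWell and lay in the same range in 2D and at 30 rpm, with changes of 0.56 ± 0.04 (adjusted p = 1.1e-07), 0.32 ± 0.04 (adjusted p = 1.7e-05) and -0.04 ± 0.04 (adjusted p = 0.37). The value at 1 rpm lost its call under median-ratio scaling and under quantile normalization (0.05 and 0.01). LAMA1, the alpha chain of embryonic basement membranes, had means of 2.47 ± 0.125, 3.83 ± 0.120, 3.77 ± 0.259 and 2.64 ± 0.0959 FPKM in 2D, AggreWell, 1 rpm and 30 rpm, and LAMA3 of 1.71 ± 0.0140, 3.17 ± 0.163, 3.34 ± 0.0542 and 2.25 ± 0.127. LAMA4, known from the basement membranes of vessels and muscle, fell instead, from 2.64 ± 0.0869 FPKM in 2D to 1.77 ± 0.115 at 1 rpm and 1.36 ± 0.0830 at 30 rpm, with changes of -0.40 ± 0.05 (adjusted p = 7e-06) and -0.62 ± 0.05 (adjusted p = 6.9e-08).

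The beta and gamma chains of HEK293T were LAMB1, LAMB2, LAMC1 and LAMC3. LAMB1 read 15.2, 13.7 and 14.2 FPKM in 2D, 17.5, 18.2 and 18.6 in AggreWell, 23.1, 21.4 and 22.3 at 1 rpm and 17.5, 17.3 and 17.3 at 30 rpm, highest at 1 rpm, and its changes were 0.32 ± 0.04 (adjusted p = 1.3e-05), 0.60 ± 0.04 (adjusted p = 1.3e-08) and 0.26 ± 0.04 (adjusted p = 5.6e-05), the last of which fell to 0.06 and lost its call under median-ratio scaling. LAMB2 had means of 9.78 ± 0.630, 16.1 ± 0.114, 19.00 ± 0.882 and 16.8 ± 0.599 FPKM and was called higher in all 3 formats, by 0.67 ± 0.05, 0.89 ± 0.05 and 0.72 ± 0.05. LAMC1 read 27.9, 28.5 and 28.3 FPKM in 2D, 30.8, 30.9 and 31.9 in AggreWell, 33.6, 30.8 and 32.4 at 1 rpm and 23.9, 23.5 and 24.4 at 30 rpm. The 30 rpm libraries were below all others, with a change of -0.23 ± 0.03 (adjusted p = 1.9e-05), while the rises of 0.14 in AggreWell and 0.19 at 1 rpm turned to -0.08 and -0.10 under median-ratio scaling. LAMC3 read 2.37, 2.25 and 2.28 FPKM in 2D, 4.71, 4.86 and 4.93 in AggreWell, 3.31, 3.12 and 3.38 at 1 rpm and 1.72, 1.52 and 1.68 at 30 rpm. Its 4 formats did not overlap, with changes of 0.82 ± 0.05 (adjusted p = 3.1e-09) in AggreWell, 0.37 ± 0.05 (adjusted p = 4.4e-06) at 1 rpm, which turned to -0.08 under quantile normalization, and -0.32 ± 0.05 (adjusted p = 1.7e-05) at 30 rpm.

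ITGB1, the beta chain shared by most integrins of both lines, was higher outside 2D in both. In PANC-1 it read 248, 248 and 248 FPKM in 2D, 314, 307 and 306 in AggreWell, 335, 334 and 342 at 1 rpm and 326, 329 and 311 at 30 rpm, and in HEK293T 13.9, 13.97 and 14.7 FPKM in 2D, 26.97, 27.2 and 27.1 in AggreWell, 30.1, 29.3 and 29.8 at 1 rpm and 28.2, 28.1 and 28.3 at 30 rpm. In each line all 9 libraries outside 2D lay above the 3 in 2D. The changes were 0.32 ± 0.02 (adjusted p = 7.3e-08), 0.44 ± 0.02 (adjusted p = 6e-10) and 0.38 ± 0.02 (adjusted p = 3.5e-09) in PANC-1. They were 0.89 ± 0.03 (adjusted p = 1.9e-11), 1.02 ± 0.03 (adjusted p = 1.7e-12) and 0.94 ± 0.03 (adjusted p = 2.8e-12) in HEK293T. The difference between the lines, PANC-1 change minus HEK293T change, was -0.57 ± 0.03, -0.57 ± 0.03 and -0.57 ± 0.03, each called (largest adjusted p = 9.2e-12).

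ITGB4, the hemidesmosome chain, was expressed in PANC-1 alone and read 1.66, 1.68 and 1.84 FPKM in 2D, 5.18, 5.03 and 5.07 in AggreWell, 4.47, 4.17 and 4.54 at 1 rpm and 2.77, 3.25 and 2.88 at 30 rpm. It was lowest in 2D, highest in AggreWell and did not overlap between any pair of formats. The changes were 1.16 ± 0.05 (adjusted p = 4.4e-10), 0.98 ± 0.05 (adjusted p = 4e-10) and 0.54 ± 0.05 (adjusted p = 2.7e-07). ITGB4 overlaps GALK1, which had a median of 12.2 FPKM in PANC-1, and without a stated strand setting reads of the pair cannot be told apart where they overlap. Its partner ITGA6 read 119, 120 and 118 FPKM in 2D, 113, 111 and 112 in AggreWell, 107, 106 and 106 at 1 rpm and 107, 107 and 102 at 30 rpm in PANC-1, with small changes of -0.09 ± 0.02, -0.16 ± 0.02 and -0.17 ± 0.02, of which the first and the second turned to 0.04 and 0.07 under quantile normalization.

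ITGB5, which pairs with ITGAV to bind vitronectin, read 57.1, 56.2 and 56.6 FPKM in 2D, 41.4, 39.98 and 39.5 in AggreWell, 43.4, 41.7 and 42.9 at 1 rpm and 63.3, 65.3 and 61.95 at 30 rpm in PANC-1. It was lower than 2D in AggreWell and at 1 rpm and higher at 30 rpm, with changes of -0.48 ± 0.03 (adjusted p = 4e-09), -0.40 ± 0.03 (adjusted p = 6e-09) and 0.16 ± 0.03 (adjusted p = 7.7e-05), and the last turned to -0.08 under median-ratio scaling. In HEK293T it read 8.92, 9.20 and 9.25 FPKM in 2D, 11.2, 11.8 and 10.9 in AggreWell, 10.6, 10.5 and 11.1 at 1 rpm and 7.50, 7.36 and 7.42 at 30 rpm. The directions were the opposite there, with changes of 0.28 ± 0.04 (adjusted p = 1e-05), 0.21 ± 0.04 (adjusted p = 9.8e-05) and -0.26 ± 0.04 (adjusted p = 1.3e-05), of which the first lost its call under median-ratio scaling and quantile normalization (0.07 and 0.09) and the second turned to -0.06 and -0.05. Between the 2 speeds ITGB5 was 0.56 ± 0.03 (adjusted p = 1.6e-09) in PANC-1 and -0.48 ± 0.04 (adjusted p = 6.1e-07) in HEK293T, 30 rpm minus 1 rpm.

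Promoter sequence is shown for 4 genes on which the comparisons turn: LAMA5, LAMB2 and ITGB1, which were higher than 2D in every other format in PANC-1, and ITGA2, which went opposite ways in the lines at both speeds. The windows are the 250 bases before the annotated start in RefSeq GRCh38.p14, from 33 windows that matched 26 of the 38 genes, and they are LAMA5 at chr20:62367313-62367562, minus strand, LAMB2 at chr3:49133051-49133300, minus strand, ITGB1 at chr10:32958231-32958480, minus strand, the first of its 2 windows, and ITGA2 at chr5:52989102-52989351, plus strand. Each is written 5′ to 3′ on the gene's strand, with matches in capitals to GGGCGG (the GC box), TGANTCA (AP-1), GGAATG (TEAD), TGACGTCA (CRE) or CACGTG (E-box), searched on both strands.
LAMA5: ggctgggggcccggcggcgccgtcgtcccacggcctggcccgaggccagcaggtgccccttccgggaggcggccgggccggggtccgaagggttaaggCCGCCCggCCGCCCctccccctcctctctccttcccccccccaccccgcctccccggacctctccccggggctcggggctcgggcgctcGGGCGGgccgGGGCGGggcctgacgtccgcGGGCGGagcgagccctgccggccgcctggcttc
LAMB2: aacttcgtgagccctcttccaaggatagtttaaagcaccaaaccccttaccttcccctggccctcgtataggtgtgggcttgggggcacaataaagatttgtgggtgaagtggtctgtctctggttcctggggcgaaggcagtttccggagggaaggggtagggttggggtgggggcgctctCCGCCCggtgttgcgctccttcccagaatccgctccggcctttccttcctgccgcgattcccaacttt
ITGB1: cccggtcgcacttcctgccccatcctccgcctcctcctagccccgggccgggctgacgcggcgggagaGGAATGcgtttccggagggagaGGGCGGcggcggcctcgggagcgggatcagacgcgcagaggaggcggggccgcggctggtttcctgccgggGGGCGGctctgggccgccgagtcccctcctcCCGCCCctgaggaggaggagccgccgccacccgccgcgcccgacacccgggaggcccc
ITGA2: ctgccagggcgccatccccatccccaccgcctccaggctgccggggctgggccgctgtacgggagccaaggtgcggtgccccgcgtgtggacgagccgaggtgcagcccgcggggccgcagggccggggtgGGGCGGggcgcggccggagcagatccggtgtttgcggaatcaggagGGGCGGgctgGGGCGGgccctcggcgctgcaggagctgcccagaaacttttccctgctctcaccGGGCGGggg

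The LAMA5 window held 5 GC boxes in 82.8% G and C, LAMB2 1 in 58.4%, ITGB1 3 in 78.4% with 1 TEAD match, and ITGA2 4 in 76.4%. A GC box stood in 42.6% of all 35116 windows of this length and in 17 of the 33 windows of these families, from 14 genes. The TEAD letters stood in 11.9% of all windows and in 4 of the 33, AP-1 in 6.57% and 2, the E-box in 6.34% and 1, and CRE in 1.65% and none. A match is only a match of letters, and no binding was measured.

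Among the laminin-binding alpha chains, ITGA3 was the most abundant in PANC-1, at 197, 187 and 186 FPKM in 2D, 119, 115 and 113 in AggreWell, 164, 160 and 167 at 1 rpm and 144, 149 and 147 at 30 rpm. No format overlapped another, with AggreWell lowest and 2D highest, and the changes were -0.71 ± 0.03 (adjusted p = 1.8e-10), -0.21 ± 0.03 (adjusted p = 1e-05) and -0.37 ± 0.03 (adjusted p = 2.7e-08), the second of which turned to 0.05 under quantile normalization. In HEK293T ITGA3 read 2.08, 2.48 and 1.999 FPKM in 2D, 2.61, 2.90 and 2.88 in AggreWell, 4.16, 4.04 and 4.19 at 1 rpm and 2.35, 2.27 and 2.31 at 30 rpm. The 1 rpm libraries were the highest by 0.69 ± 0.06 (adjusted p = 8.1e-08), and the smaller change in AggreWell, 0.26 ± 0.06 (adjusted p = 0.0011), turned to -0.07 under quantile normalization. At 30 rpm it was not called, 0.06 ± 0.06 (adjusted p = 0.35).

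ITGA6 in HEK293T read 2.38, 2.50 and 2.54 FPKM in 2D, 2.47, 2.88 and 2.62 in AggreWell, 6.24, 5.92 and 5.77 at 1 rpm and 3.71, 4.27 and 4.09 at 30 rpm. AggreWell overlapped 2D and was not called, 0.07 ± 0.05 (adjusted p = 0.25), while 1 rpm was higher by 1.01 ± 0.05 (adjusted p = 1.1e-09) and 30 rpm by 0.53 ± 0.05 (adjusted p = 7.8e-07). ITGA7, a laminin receptor best known from muscle, was expressed in HEK293T alone and read 2.33, 1.96 and 1.88 FPKM in 2D, 4.35, 4.84 and 4.74 in AggreWell, 4.79, 4.52 and 4.98 at 1 rpm and 3.85, 3.75 and 3.48 at 30 rpm. All libraries outside 2D lay above those in 2D, with changes of 0.89 ± 0.06 (adjusted p = 2.7e-08), 0.92 ± 0.06 (adjusted p = 9.3e-09) and 0.62 ± 0.06 (adjusted p = 5.1e-07). ITGA7 overlaps BLOC1S1, at a median of 4.76 FPKM in HEK293T, and their reads cannot be told apart where the genes overlap.

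Among the collagen-binding chains, ITGA2 moved in opposite directions at both speeds. In PANC-1 it read 43.2, 43.9 and 42.03 FPKM in 2D, 43.4, 42.3 and 41.9 in AggreWell, 23.7, 23.2 and 23.2 at 1 rpm and 27.6, 27.1 and 26.01 at 30 rpm. AggreWell overlapped 2D and was not called, -0.02 ± 0.03 (adjusted p = 0.61), and both speeds were lower, at -0.85 ± 0.03 (adjusted p = 3.4e-12) for 1 rpm and -0.66 ± 0.03 (adjusted p = 5.1e-11) for 30 rpm. In HEK293T it read 0.997, 0.989 and 0.779 FPKM in 2D, 1.78, 1.82 and 1.82 in AggreWell, 3.67, 4.25 and 4.11 at 1 rpm and 2.67, 2.38 and 2.48 at 30 rpm. There all formats were higher than 2D and 1 rpm was the highest. Every 2D library was under 1 FPKM, so ITGA2 passed the HEK293T filter through the formats in which it is high. Its differences from 2D in HEK293T are therefore given as values alone, 0.55 in AggreWell, 1.38 at 1 rpm and 0.87 at 30 rpm. The difference between the lines was -2.24 ± 0.06 (adjusted p = 1.5e-17) at 1 rpm and -1.53 ± 0.06 (adjusted p = 5e-15) at 30 rpm. ITGA2 kept its direction at both speeds in both lines under the scalings tried, and its call in PANC-1. In HEK293T its calls against 2D rest on passing the filter through formats in which it is high, so they add no support. Even its highest library in HEK293T, 4.25 FPKM, was under its lowest in PANC-1, 23.2.

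ITGA1 in HEK293T read 0.333, 0.382 and 0.272 FPKM in 2D, 1.15, 1.43 and 1.28 in AggreWell, 1.69, 1.75 and 1.66 at 1 rpm and 1.42, 1.60 and 1.46 at 30 rpm. It was under 1 FPKM in every 2D library and above 1 in every other, so it passed the filter through the formats in which it is high. Its differences from 2D are therefore given as values alone, 0.78 in AggreWell, 1.02 at 1 rpm and 0.91 at 30 rpm. ITGA1 overlaps PELO, whose median in HEK293T was 10.6 FPKM, and their reads cannot be told apart where the genes overlap. ITGA10 in PANC-1 read 0.515, 0.684 and 0.488 FPKM in 2D, 0.851, 0.973 and 1.01 in AggreWell, 1.62, 1.84 and 1.66 at 1 rpm and 0.668, 0.847 and 0.551 at 30 rpm. Only the 1 rpm libraries were all above 1 FPKM, and with 1 library from AggreWell they passed the gene into the test. Its differences from 2D are therefore given as values alone, 0.32 in AggreWell, 0.79 at 1 rpm and 0.11 at 30 rpm, of which the first was 0.05 and the last turned to -0.29 under quantile normalization.

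Among the chains that read Arg-Gly-Asp, ITGAV in HEK293T read 4.76, 6.06 and 5.03 FPKM in 2D, 8.17, 8.66 and 8.22 in AggreWell, 10.8, 12.3 and 10.2 at 1 rpm and 9.76, 10.04 and 8.85 at 30 rpm. Every library outside 2D was above those in 2D, with changes of 0.58 ± 0.08 (adjusted p = 1.7e-05), 0.95 ± 0.08 (adjusted p = 8e-08) and 0.75 ± 0.08 (adjusted p = 8.4e-07). In PANC-1 ITGAV had means of 31.5 ± 2.04, 34.2 ± 0.163, 45.4 ± 0.816 and 45.7 ± 0.945 FPKM, and its rises were 0.51 ± 0.04 at 1 rpm and 0.52 ± 0.04 at 30 rpm, with a value in AggreWell of 0.12 ± 0.04 that turned to -0.07 under median-ratio scaling and lost its call without the first 2D library (0.07). ITGA5 in PANC-1 read 46.1, 44.2 and 43.6 FPKM in 2D, 37.5, 39.03 and 38.4 in AggreWell, 63.02, 62.4 and 63.8 at 1 rpm and 69.3, 72.4 and 73.2 at 30 rpm. It was lowest in AggreWell and highest at 30 rpm, with no overlap between formats, and changed by -0.21 ± 0.03 (adjusted p = 1.7e-05), 0.49 ± 0.03 (adjusted p = 1.3e-09) and 0.67 ± 0.03 (adjusted p = 5e-11).

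In HEK293T ITGA5 read 12.6, 11.5 and 12.7 FPKM in 2D, 17.7, 16.9 and 17.4 in AggreWell, 16.6, 17.1 and 17.3 at 1 rpm and 14.5, 15.4 and 14.5 at 30 rpm. It was above 2D in every library of the other formats, by 0.47 ± 0.04 (adjusted p = 2.8e-07), 0.44 ± 0.04 (adjusted p = 3e-07) and 0.25 ± 0.04 (adjusted p = 6.9e-05), the last of which lost its call under median-ratio scaling (0.05) and quantile normalization (0.09). The platelet receptor chain ITGA2B had means of 1.58 ± 0.285, 3.46 ± 0.421, 2.62 ± 0.207 and 2.50 ± 0.190 FPKM in HEK293T, where the other platelet markers PF4 and GP1BA were not expressed. ITGA8, a nephronectin receptor chain of the kidney, had 2.06 ± 0.0430, 2.16 ± 0.0367, 2.03 ± 0.162 and 1.69 ± 0.145 FPKM, and its lower value at 30 rpm was -0.19 ± 0.05 (adjusted p = 0.0053). ITGA4, which binds VCAM1 and fibronectin, had 2.51 ± 0.281, 3.48 ± 0.126, 3.92 ± 0.257 and 2.74 ± 0.112 FPKM. It overlaps CERKL, at a median of 0.757 FPKM in HEK293T, and their reads cannot be told apart where the genes overlap.

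ITGAE, the E-cadherin receptor chain of resident lymphocytes, was expressed in both lines although the leukocyte marker PTPRC was not. Its means were 3.97 ± 0.465, 3.65 ± 0.149, 3.002 ± 0.161 and 3.42 ± 0.0968 FPKM in PANC-1 and 6.04 ± 0.512, 4.35 ± 0.0513, 5.21 ± 0.423 and 4.997 ± 0.259 in HEK293T. Its usual partner ITGB7 did not exceed 0.0541 FPKM in any library. HASPIN overlaps ITGAE, at a median of 8.43 FPKM in PANC-1 and 16.3 in HEK293T, as does P2RX5 at 6.8 in PANC-1, and their reads cannot be told apart from those of ITGAE where the genes overlap.

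**Figure D3:**
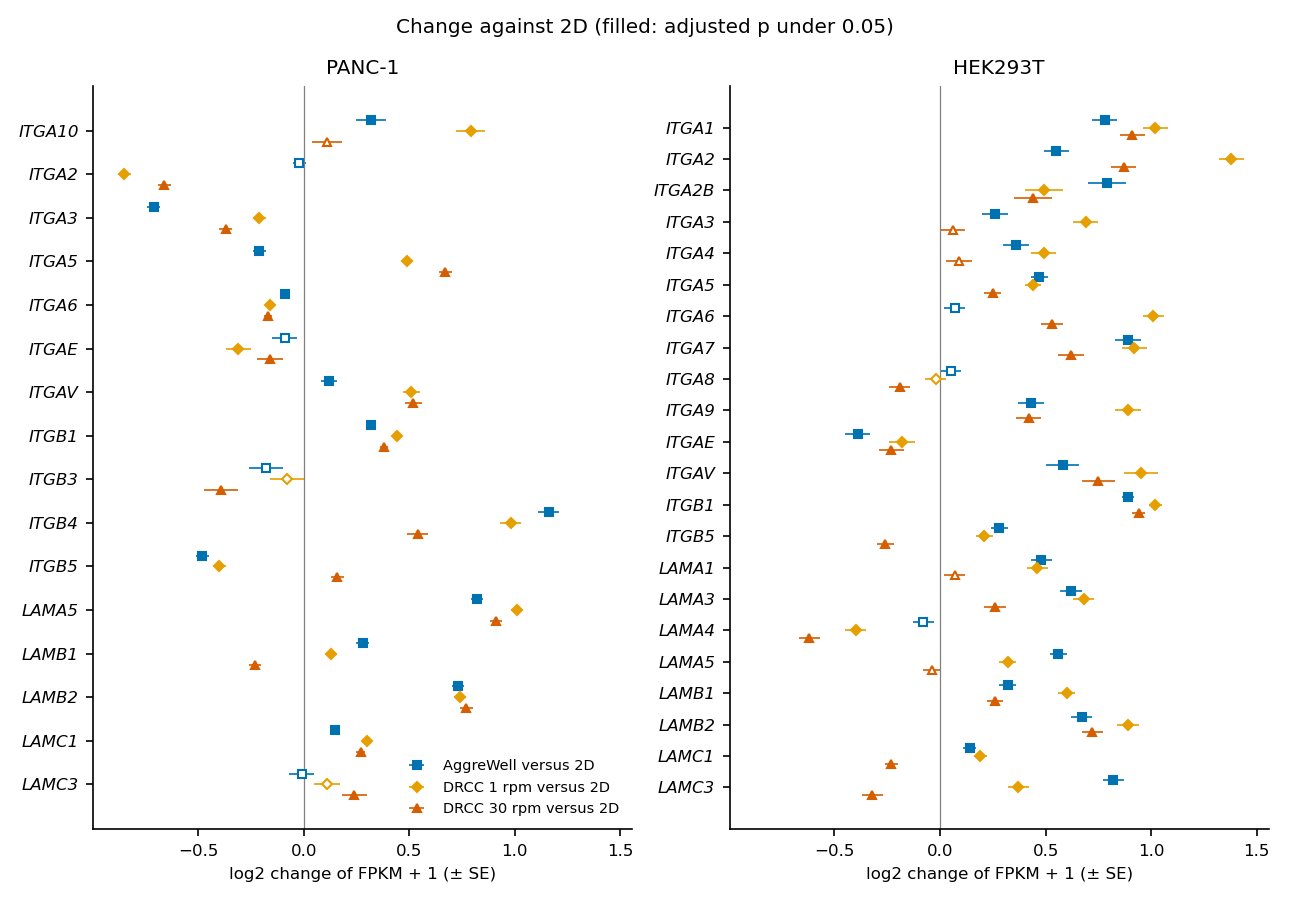
Change against 2D, in log2(FPKM + 1) ± SE, of tested integrin and laminin genes in PANC-1 (left, 16 genes) and HEK293T (right, 22 genes), for AggreWell, 1 rpm and 30 rpm (n = 3 libraries per group, filled symbols adjusted p under 0.05 in limma). In PANC-1 the points lie on both sides of 0, from -0.85 for ITGA2 to 1.16 for ITGB4, and in HEK293T most lie to the right, up to 1.38 for ITGA2 at 1 rpm. ITGA1, ITGA2 and ITGA9 in HEK293T and ITGA10 in PANC-1 passed the filter through formats in which they are high, and their filled symbols rest on that.

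Counted over the families, the PANC-1 genes went both ways and their median did not stand above that of all genes. In AggreWell 8 of 17 were called higher and 5 lower, where 45.9% of all tested genes were higher and 24.1% lower. At 1 rpm 9 were higher and 6 lower (52.3% and 33.9% of all genes), and at 30 rpm 9 and 7 (53.6% and 32.2%). The median change of the 17 was -0.01, 0.13 and 0.16, beside 0.10, 0.15 and 0.17 over all genes. Under median-ratio scaling the split was 6 to 8, 8 to 8 and 6 to 8, with 29% of all genes higher and 42.8% lower in AggreWell, 40.1% and 45.3% at 1 rpm, and 41.1% and 44.8% at 30 rpm. Of the 6 laminin chains 4 were higher in each format, LAMA5, LAMB2 and LAMC1 in all 3, although LAMC1 in AggreWell turned to -0.04 under median-ratio scaling.

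In HEK293T most of the 22 were called higher than 2D in AggreWell and at 1 rpm. The counts were 18 higher and 1 lower in AggreWell (48.6% and 26.8% of all genes), 19 and 2 at 1 rpm (53.1% and 31.7%), and 12 and 6 at 30 rpm (49.6% and 35.5%). The median change was 0.47, 0.55 and 0.25, beside 0.12, 0.18 and 0.13 over all genes. Under median-ratio scaling the counts were 15 to 3, 16 to 4 and 10 to 7, with 32.4% of all genes higher and 44.3% lower in AggreWell, 38.6% and 46% at 1 rpm, and 39.7% and 45.2% at 30 rpm. Under quantile normalization they were 15 to 4 (31% and 42.1% of all genes), 13 to 3 (37.7% and 44.3%) and 9 to 11 (37.8% and 44.6%), so the last lay near the share of all genes. At 1 rpm 12 of 14 integrin chains and 7 of 8 laminin chains were higher, and the exceptions called lower were ITGAE and LAMA4, of which ITGAE (-0.18) lost its call without the first library of either group (-0.14 each). ITGA1, ITGA2 and ITGA9 were under 1 FPKM in 2D, so their passing the filter rests on the formats in which they are high.

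The 3 formats other than 2D also differed from each other. In PANC-1 8 of 17 genes were higher and 5 lower at 1 rpm than in AggreWell (43.7% and 38.4% of all genes), led by ITGA5 at 0.71 ± 0.03 and ITGA2 at -0.84 ± 0.03. At 30 rpm against AggreWell 8 were higher and 7 lower (45.4% and 37.8%), with ITGA5 at 0.89 ± 0.03, ITGB5 at 0.64 ± 0.03 and ITGB4 at -0.62 ± 0.05. In HEK293T 10 of 22 were higher and 4 lower at 1 rpm than in AggreWell (41.8% and 33.8%), with ITGA6 at 0.93 ± 0.05 and ITGA2 at 0.83 ± 0.06. At 30 rpm against AggreWell 3 were higher and 13 lower (39.9% and 38.7%), and LAMC3 fell the furthest, -1.14 ± 0.05 (adjusted p = 1.3e-10).

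Between the speeds, no HEK293T gene of the 22 was called higher at 30 rpm than at 1 rpm and 18 were lower, in limma, beside 19.6% and 32.9% of all genes. All 8 laminin chains were among the 18, and their largest change was LAMC3 at -0.69 ± 0.05 (adjusted p = 2e-07). Among the integrin chains ITGA3 was -0.63 ± 0.06 (adjusted p = 2.2e-06), ITGA2 -0.51 ± 0.06 (adjusted p = 2.1e-05) and ITGB5 -0.48 ± 0.04 (adjusted p = 6.1e-07). ITGA9, at -0.48, passed the filter through its 1 rpm libraries alone, so its lower level at 30 rpm follows from the filter. Without it 17 genes were lower. The smallest called change, ITGB1 at -0.07, turned to 0.01 under median-ratio scaling and lost its call when any of 5 libraries was left out. The counts were 0 and 14 under median-ratio scaling (30.9% and 21.8% of all genes) and 0 and 15 under quantile normalization (26.8% and 25.8%). In PANC-1 4 of 17 were higher at 30 rpm and 8 lower (36.2% and 31.9%), with ITGB5 at 0.56 ± 0.03 (adjusted p = 1.6e-09) highest and ITGB4 at -0.45 ± 0.05 (adjusted p = 5.4e-06) among the lowest. ITGA10 was lower still, at -0.68, and had passed the filter mainly through its 1 rpm libraries.

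**Figure D4:**
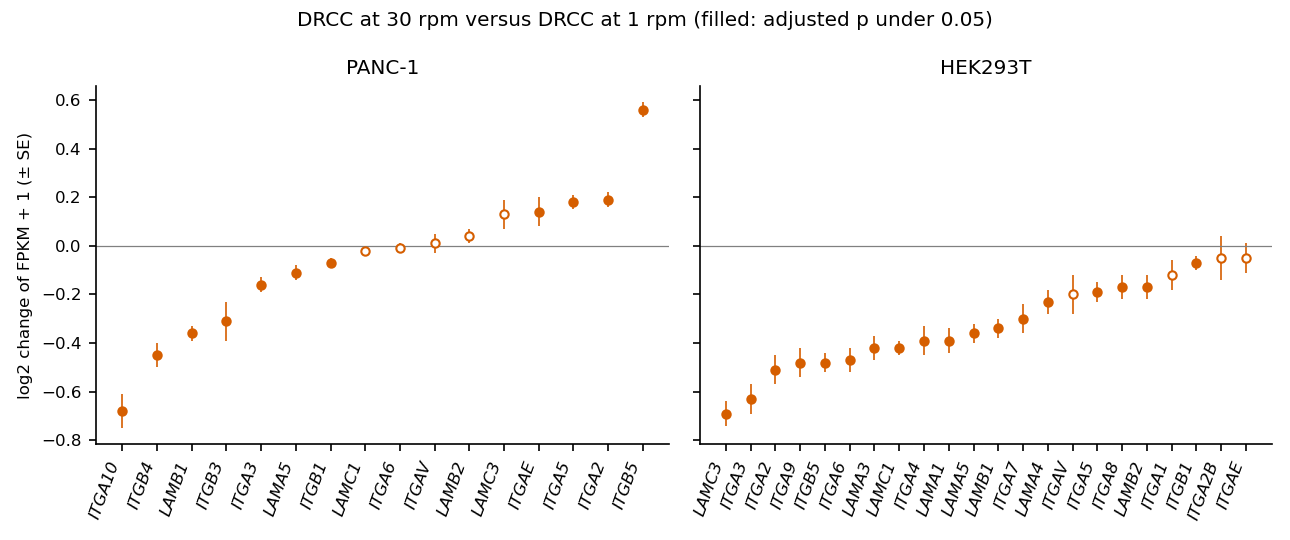
Change from 1 rpm to 30 rpm, in log2(FPKM + 1) ± SE, of tested genes in PANC-1 (left) and HEK293T (right), in order of size (n = 3 libraries per group, filled symbols adjusted p under 0.05 in limma). All 22 HEK293T points lie below 0, down to -0.69 for LAMC3, although ITGB1 turned to 0.01 under median-ratio scaling, while PANC-1 spans -0.68 for ITGA10, whose filled symbol rests on its passing the filter through the 1 rpm libraries (as does that of ITGA9 in HEK293T), to 0.56 for ITGB5.

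The lines differed in 2D before any comparison of format. Of 26 genes that passed in the joint set, 15 were higher and 10 lower in PANC-1 (34.7% and 56.1% of all genes), 11 and 7 of them by at least 2-fold on the log2(FPKM + 1) scale (12.2% and 21.9%). The 13 genes expressed in only 1 of the lines entered the joint set through that line, so the counts that hold them follow in part from the filter. ITGA3 was 5.91 ± 0.04 above HEK293T, ITGA6 5.11 ± 0.04, ITGA2 4.52 ± 0.04 and ITGB1 4.03 ± 0.02. The lower genes were led by ITGA4 at -1.80 ± 0.05, LAMA1 at -1.71 ± 0.04 and ITGA8 at -1.61 ± 0.04. These passed the filter through HEK293T alone, so their lower level in PANC-1 follows from the filter. Among the genes expressed in both lines, those called lower were ITGAE at -0.50 and LAMC3 at -0.47. ITGA1 was not called, -0.05 ± 0.05 (adjusted p = 0.32). As each line is 1 line, these values compare the lines and not pancreas with kidney.

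Differences between the lines in the response to format were called for most of the 26 genes, as for most of all genes. Taking the PANC-1 change minus the HEK293T change, 5 were called above 0 and 16 below in AggreWell (25% and 32% of all genes), 5 and 17 at 1 rpm (35.8% and 40%), and 8 and 13 at 30 rpm (42% and 37.5%). The median difference was -0.45, -0.45 and -0.16, beside -0.03, -0.03 and 0.04 over all genes. At 30 rpm the counts were 8 and 11 under median-ratio scaling (39.7% and 39.4% of all genes) and 9 and 9 under quantile normalization (40% and 38.6%). More genes below 0 than above was thus not seen there in each setting. The 9 genes expressed in HEK293T alone passed through that line and lay near 0 FPKM or below the filter in PANC-1, so their differences largely restate the HEK293T change. Of these 9, 1 was called above 0 and 7 below in AggreWell, and voom on the recovered fragments called 1 and 1, with the calls of ITGA2B (0.00), ITGA4, ITGA7, ITGA9, LAMA1 and LAMA3 lost. At 30 rpm LAMA3 (-0.18) turned to 0.66 (adjusted p = 0.038 in voom with limma). Over the 13 genes expressed in both lines, 2 were above 0 and 8 below in AggreWell (26.8% and 30.8% of all genes expressed in both), 2 and 9 at 1 rpm (38.4% and 38.8%), and 5 and 6 at 30 rpm (44.3% and 37.1%), with the same counts under voom. Under quantile normalization the 13 gave 4 and 7, 3 and 6, and 5 and 4. LAMA5 lay above 0 in each, at 0.26 ± 0.05, 0.70 ± 0.05 and 0.95 ± 0.05. So did ITGB4 at 0.90 ± 0.07, 0.97 ± 0.07 and 0.71 ± 0.07, but it passed through PANC-1 alone, so these values largely restate the PANC-1 change. In HEK293T ITGB4 was below the filter, with means of 0.307 FPKM in 2D and 0.563 in AggreWell, a rise that log2(FPKM + 1) understates. LAMB2 was close to 0, at 0.06 ± 0.05 (not called), -0.15 ± 0.05 (adjusted p = 0.013, with the call lost at -0.03 under quantile normalization) and 0.05 ± 0.05 (not called).

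Some genes were called in both lines with opposite signs. They were ITGA3, ITGA5 and ITGB5 in AggreWell, ITGA2, ITGA3, ITGA6 and ITGB5 at 1 rpm, and ITGA2, ITGA6, ITGB5, LAMB1, LAMC1 and LAMC3 at 30 rpm. ITGA5 in AggreWell, ITGA2 at both speeds and ITGA6 at 30 rpm kept sign and call in both lines under median-ratio scaling and quantile normalization, and each of the others lost a call or turned in 1 of the lines under at least 1 of them. The HEK293T calls of ITGA2 rest on its passing the filter through formats in which it is high, so they add no support. The ITGA6 difference was -0.70 ± 0.06 (adjusted p = 2.1e-10) at 30 rpm, and that of ITGA5 in AggreWell was -0.68 ± 0.05 (adjusted p = 3.1e-10). In each line and format most of all tested genes were called, some higher and others lower. The share of all genes called with opposite signs was not counted. Whether opposite signs were more common in these families was therefore not tested.

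**Figure D5:**
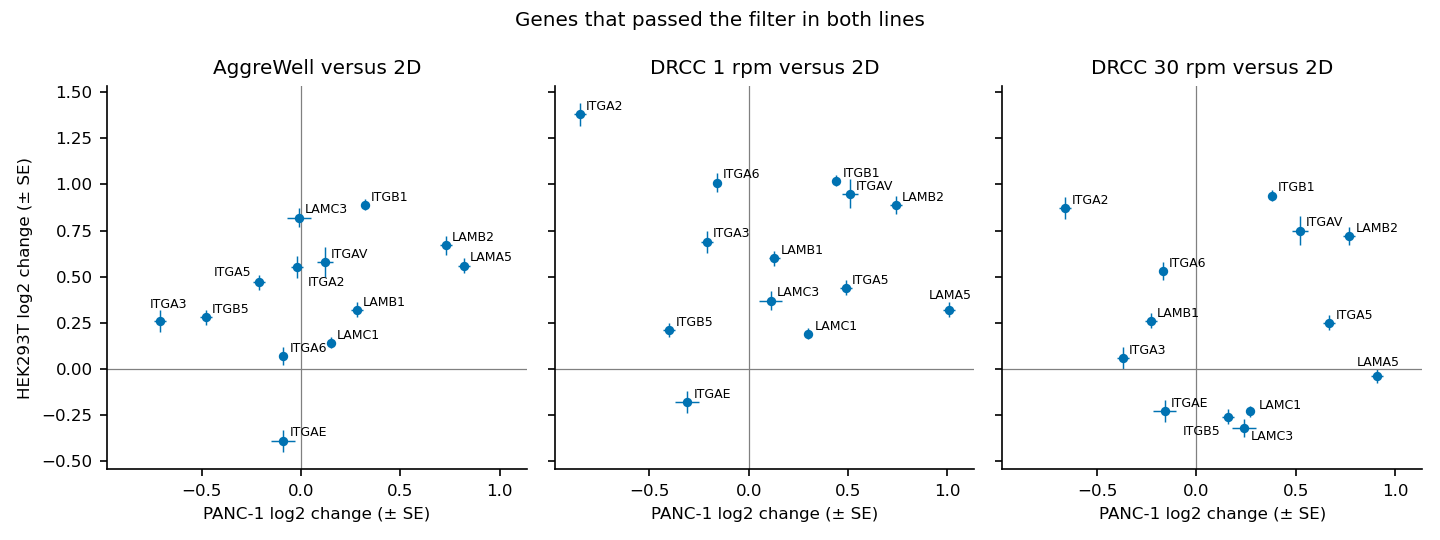
PANC-1 change (horizontal) against HEK293T change (vertical) from 2D, in log2(FPKM + 1) ± SE, for the 13 genes expressed in both lines, with 1 panel per format and n = 3 libraries per group. ITGA2 lies in the upper left at both speeds, at -0.85 and 1.38 at 1 rpm, whereas ITGB1 and LAMB2 lie in the upper right in all 3 panels.

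The genes that act with these chains were followed in 5 lists. Named genes were each called against 2D in limma, with levels as mean ± SD (n = 3) and changes as log2 ± SE. The counts are given in the order AggreWell, 1 rpm and 30 rpm, and they read against the shares of all genes given above for the same comparisons.

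Of the integrin adhesion complex, the adaptors that join the beta tail to actin, 27 were tested in PANC-1, with 8, 9 and 11 higher and 8, 13 and 15 lower. VCL, the talin-binding protein vinculin, fell from 99.9 ± 0.203 to 47.9 ± 1.24 FPKM at 30 rpm. RSU1, a partner of the ILK complex, fell from 23.4 ± 1.34 to 10.01 ± 0.113 FPKM at 1 rpm, and the kinase SRC rose by 1.07 ± 0.05 at 30 rpm. In HEK293T 26 were tested, with 11, 9 and 8 higher and 4, 11 and 12 lower. The kindlin FERMT2 rose from 12.8 ± 1.202 to 26.4 ± 0.0380 FPKM and the actinin ACTN1 fell from 34.9 ± 0.451 to 18.1 ± 0.895 FPKM at 30 rpm. TNS2, also in this list, had 0.378 ± 0.0454 FPKM in 2D and 1.53 ± 0.0883 in AggreWell in HEK293T. Its place in the counts there rests on passing the filter through formats in which it is high.

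Of the basement membrane partners, which link laminin to collagen IV, 7 were tested in PANC-1, with 5, 6 and 6 higher and 0, 1 and 1 lower. The proteoglycan perlecan (HSPG2) rose from 3.96 ± 0.0694 to 11.3 ± 0.123 FPKM and nidogen (NID1) from 35.5 ± 1.74 to 66.8 ± 1.81 FPKM, both at 1 rpm. In HEK293T 13 were tested, with 6, 4 and 1 higher and 3, 6 and 10 lower. There the collagen IV chain COL4A2 fell from 26.3 ± 0.335 to 10.1 ± 0.226 FPKM and COL18A1 from 13.8 ± 0.409 to 7.42 ± 0.111 FPKM, both at 30 rpm.

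Of 11 other laminin receptors and integrin partners, 2, 2 and 6 were higher and 7, 7 and 3 lower in PANC-1, and 6, 7 and 6 higher and 2, 4 and 4 lower in HEK293T. The LAMA5 receptor BCAM rose from 1.40 ± 0.190 to 5.28 ± 0.375 FPKM in PANC-1 at 30 rpm. The syndecan SDC4 rose from 34.2 ± 1.01 to 84.1 ± 1.33 FPKM at 30 rpm and SDC1 fell from 36.7 ± 0.681 to 18.2 ± 0.210 FPKM at 1 rpm in PANC-1. Dystroglycan (DAG1), a receptor for laminin alpha chains, fell from 25.4 ± 0.115 to 12.1 ± 0.149 FPKM in HEK293T at 30 rpm.

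Of the hemidesmosome genes 3 were tested, PLEC, DST and CD151, and in each format 2 were higher and 1 lower in PANC-1 and 3 higher in HEK293T, although CD151 in HEK293T at 30 rpm, 0.15 ± 0.03, turned to -0.06 under median-ratio scaling. CD151, a tetraspanin partner of ITGA3 and ITGA6, fell from 319 ± 8.95 to 233 ± 2.71 FPKM in PANC-1 in AggreWell. DST, the cytoskeletal linker dystonin, rose from 3.34 ± 0.139 to 9.16 ± 0.264 FPKM in PANC-1 and from 0.595 ± 0.0469 to 4.06 ± 0.139 FPKM in HEK293T at 1 rpm. In HEK293T 2D it was under 1 FPKM, so its place in the count there rests on passing the filter through formats in which it is high.

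Of the other integrin ligands 8 were tested in PANC-1, with 3, 5 and 4 higher and 4, 3 and 2 lower, and 11 in HEK293T, with 9, 10 and 7 higher and 1, 1 and 2 lower. Fibronectin (FN1), the ligand of ITGA5, rose from 2.59 ± 0.0261 to 6.91 ± 0.376 FPKM in HEK293T in AggreWell. Nephronectin (NPNT), a ligand of ITGA8, rose from 0.738 ± 0.172 to 2.79 ± 0.227 FPKM there at 1 rpm. Being under 1 FPKM in 2D, NPNT passed the filter through formats in which it is high. So did EDIL3, also in this list, with means of 0.865 ± 0.223 FPKM in 2D and 5.59 ± 0.589 at 1 rpm in HEK293T. The place of both in the HEK293T counts rests on that. Thrombospondin 1 (THBS1) fell from 3.39 ± 0.0952 to 0.275 ± 0.0484 FPKM in PANC-1 at 1 rpm. Being under 1 FPKM at 1 rpm, THBS1 passed the filter through formats in which it is high, so its place in that count rests on this.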

How the data were processed

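The deposited values are FPKM per gene for 24 libraries, made by the authors, each library matched to its label by its name. Per the labels, libraries came from TRIzol-extracted total RNA with the VAHTS Universal V10 kit, and the submitters' processing notes name fastp, HISAT2, HTSeq and R 3.2.0 without settings. They name the build mm10 although the genes carry human symbols, so no coordinate was taken from the table, and the sources used here give no strand setting. For 26449 of the 26450 genes the low FPKM steps gave whole fragments within 0.01, and 1 gene was left out of the fragment totals.

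Genes with at least 1 FPKM in at least 3 libraries of a line (11585 in PANC-1, 12548 in HEK293T) or of all 24 (13392) were fitted as log2(FPKM + 1) in limma 3.58.1 with a mean-dependent prior (R 4.3.3), with one fit per line over its 4 formats and a joint fit for line differences. P-values were adjusted by Benjamini-Hochberg over all genes and called under 0.05. The same code was tested on simulated data. Tables and figures used Python 3.11.15, pandas 2.3.3, numpy 2.4.6 and matplotlib 3.10.9. The families and lists were chosen with earlier results of these data known. Values in every library are given for the most abundant chain of each class, the 6 largest called changes against 2D per line, and genes whose called changes had opposite signs in PANC-1 and HEK293T. The values of 1 gene of the families are not reported here, although it is part of the counts and medians. From each companion list the named genes are among the 3 largest called changes per line. Genes of like pattern were not ranked, since the 8 group means fall into 2 clusters by line. Other settings tried were median-ratio scaling, quantile normalization, a pseudocount of 0.1, testing all genes, testing genes with a mean of at least 5 FPKM, the 2 formats alone, a replicate block, voom on the recovered fragments, and leaving out each library. Same-numbered libraries deviated together only for HEK293T 1 rpm and 2D (correlations 0.158, 0.43 and 0.145), a pairing seen in the data and not stated by the labels, and the block changed no call named for that pair.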

Additional observations from a re-analysis of the deposited data

Results flagged for a closer look

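Results below were picked out because PANC-1 and HEK293T moved apart from 2D in opposite directions, each called in its own line, and the test of the difference in the joint limma fit was also called. Genes picked for opposite signs differ by construction, so the call of the difference adds no separate support. The share of all genes called with opposite signs was not counted. Over the families 21, 22 and 21 of 26 genes differed between the lines in AggreWell, at 1 rpm and at 30 rpm (PANC-1 change minus HEK293T change, n = 3 libraries per group). Over all genes 25% were called above 0 and 32% below in AggreWell, 35.8% and 40% at 1 rpm, and 42% and 37.5% at 30 rpm, so at both speeds the families' share was near that of all genes. In AggreWell ITGA3 differed by -0.97, ITGA5 by -0.68 and ITGB5 by -0.77. At 1 rpm ITGA2 differed by -2.24, ITGA3 by -0.90, ITGA6 by -1.17 and ITGB5 by -0.61. At 30 rpm ITGA2 differed by -1.53, ITGA6 by -0.70, ITGB5 by 0.43, LAMB1 by -0.49, LAMC1 by 0.50 and LAMC3 by 0.56. Only ITGA5 in AggreWell, ITGA2 at both speeds and ITGA6 at 30 rpm kept sign and call in both lines under median-ratio scaling and quantile normalization. Each of the others lost a call or turned in 1 of the lines under at least 1 of these. The HEK293T calls of ITGA2 rest on its passing the filter through formats in which it is high, so they add no support. Groups of 3 libraries were not screened for single libraries that stand apart.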

How the results depend on the processing

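The pseudocount of 0.1, voom on recovered fragments and the replicate block kept the direction and side of the threshold of the 81 changes of named genes against 2D and the 16 counts of genes called within 1.5 times, and testing all genes moved 1 count, that for PANC-1 1 rpm against AggreWell, from 13 to 20 as more genes were tested. Within that limit voom still lost calls for the line difference in AggreWell. Of the 9 genes expressed in HEK293T alone, it called 1 above 0 and 1 below, where the main fit called 1 and 7. At a mean of at least 5 FPKM, which tests fewer genes, the HEK293T counts called were 9, 9 and 8 against 2D (AggreWell, 1 rpm, 30 rpm), 6 and 5 for 1 rpm and 30 rpm against AggreWell and 8 between the speeds, and 8, 10 and 10 for the line differences and 11 for the lines in 2D. Genes such as ITGA1, ITGA2 and ITGA7 were not tested in HEK293T at that filter. The shares of all genes called there are not given, so these lower counts do not show a loss of change. Median-ratio scaling turned ITGB5 in HEK293T at 1 rpm (-0.06) and in PANC-1 at 30 rpm (-0.08), LAMB1 in PANC-1 at 1 rpm (-0.09), and LAMC1 in HEK293T in AggreWell (-0.08) and at 1 rpm (-0.10) and in PANC-1 in AggreWell (-0.04). Quantile normalization turned ITGA10 in PANC-1 at 30 rpm (-0.29), ITGA3 in HEK293T in AggreWell (-0.07) and at 30 rpm (-0.30) and in PANC-1 at 1 rpm (0.05), ITGA6 in HEK293T in AggreWell (-0.26) and in PANC-1 in AggreWell (0.04) and at 1 rpm (0.07), ITGB5 in HEK293T at 1 rpm (-0.05), and LAMC3 in HEK293T at 1 rpm (-0.08) and in PANC-1 at 1 rpm (-0.24) and 30 rpm (-0.12). The cause of the turned values was not tested. Leaving out 1 library at a time gave counts called of 13 to 14, 15 to 16 and 15 to 16 in PANC-1 and 19 to 19, 19 to 21 and 18 to 20 in HEK293T against 2D, 12 to 14, 12 to 15 and 11 to 12 in PANC-1 and 13 to 14, 15 to 16 and 15 to 17 in HEK293T among the other formats (1 rpm against AggreWell, 30 rpm against AggreWell, 30 rpm against 1 rpm), 20 to 21, 20 to 23 and 20 to 22 for the line differences, 25 to 25 for the lines in 2D, and 17 to 17 and 21 to 22 genes expressed. With the replicate block the count called for HEK293T 1 rpm against 2D was 21, as without it, and in other comparisons ITGB1 in PANC-1 from AggreWell to 30 rpm (adjusted p = 0.057) and ITGAE in PANC-1 from 1 rpm to 30 rpm (adjusted p = 0.061) lost their calls in limma. Counting only genes expressed in both lines, chosen after seeing the data and covering fewer genes, gave 10, 11 and 11 called line differences in AggreWell, at 1 rpm and at 30 rpm, and leaving out ITGA9 and ITGA10, also chosen after seeing the data, gave 17 called between the speeds in HEK293T and 11 in PANC-1. Few fragments limit the line differences of genes expressed in 1 line alone, such as ITGA4 with 12 fragments over all PANC-1 libraries.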
